A study of Mus musculus with 12 samples.

Results

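The data described here are the three-way contacts seen from Lefty1-2, a Tri-C viewpoint just before Lefty2 on mouse chromosome 1, as pairs of DpnII fragments that were joined in a read to the viewpoint and to each other. The members were all fragment pairs with both midpoints within 1 Mb of position 180888832 (mm10), where the capture oligonucleotide starts. In naive cells 553 distinct pairs with 685 counts met this rule, of 882 pairs and 1053 counts of the viewpoint. In primed cells 406 distinct pairs with 551 counts did, of 624 pairs and 791 counts. Over both states the members were 905 distinct pairs, beside 159167 pairs listed in all 46 tables of the series.

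Both groups were cells of J1, a line of mouse embryonic stem cells. Naive cells were kept in serum-free N2B27 medium with 2 inhibitors (2i) and LIF, and primed cells were grown on Geltrex with Fgf2 and Activin A. Each state had 3 biological replicates for each of 2 pools of oligonucleotides, and Lefty1-2 belongs to the first pool. A deposited table holds 1 viewpoint in 1 state with no replicate, so replicates were taken as pooled, no value has a replicate error, and no test between the states was made. Library and state therefore cannot be told apart. Totals over the 23 viewpoints ran from 5 to 41081 counts in naive cells and from 3 to 32749 in primed cells. Shares are given with exact Clopper-Pearson 95% intervals, and ratios of the primed to the naive share with 95% intervals from the split of the counts between the states. Both cover counting error only, since reads without molecular identifiers are not independent molecules and a read with more than 2 reporter fragments adds several pairs. The interval of a ratio does not hold the totals fixed, so it is wider than needed where shares are large.

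Lefty1 and Lefty2 are neighbouring paralogues that encode secreted antagonists of Nodal, a TGF-beta family ligand. Nodal and Activin act through SMAD2, SMAD3 and the forkhead protein FOXH1, and both Lefty genes are classical targets of this pathway, so that they limit the signal that induces them. Three-way contacts record which other parts of a locus lie together with a chosen region on the same copy of a chromosome.

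Of the study's 23 capture oligonucleotides, the pair at this locus is shown because both hold the letters TGTGGATT, the core bound by FOXH1, in capitals below. Each is 100 bases long, printed 5′ to 3′ as listed by the study for the plus strand of mm10. In Lefty1-2 the letters are on the opposite strand, as AATCCACA.
Lefty1-2: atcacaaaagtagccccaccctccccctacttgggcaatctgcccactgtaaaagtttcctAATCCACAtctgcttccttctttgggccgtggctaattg
Lefty1: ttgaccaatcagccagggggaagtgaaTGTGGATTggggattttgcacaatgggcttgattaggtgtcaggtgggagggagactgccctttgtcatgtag
The first lies at chr1:180888832-180888931, in no gene span that RefSeq annotates, 20.7 kb after the end of Sde2 and 4.18 kb before the start of Lefty2. The second lies at chr1:180924850-180924949, farther downstream and inside the non-coding gene Gm39715 and 10.1 kb before Lefty1. No other oligonucleotide of the 23 had these letters on either strand. They were present in 267 of 98553 windows of 100 bases from RefSeq promoters (0.271%, GRCm38.p6). Of other letters searched on both strands, CAGAC, bound by SMAD proteins, was in 3 of the 23 oligonucleotides but in neither of this locus (20.2% of the windows). CACCC, bound by KLF proteins, was in 5, among them Lefty1-2 (25.4% of the windows), and the DpnII site GATC was in none (19.3%). The letters searched were chosen with the oligonucleotide sequences known. The windows come from promoters, while the oligonucleotides belong to enhancer pools. The shares of windows therefore cannot show whether a match is unusual. These matches are letters in a window and say nothing about binding.

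Outside its own bin of 10 kb, most of which lies upstream of it, the viewpoint reached mainly downstream, over the Lefty genes, in both states. Pairs with both fragments downstream were most of the counts used, the bins of Lefty2, the Lefty1 oligonucleotide and Lefty1 were among the most touched, and the share of neither Lefty gene differed between the states beyond counting error. Naive cells had more pairs that reached 500 to 1000 kb upstream, and more partners upstream of the viewpoint for the bin of the Lefty1 oligonucleotide. Primed cells had more counts in the bin just upstream of the viewpoint, a difference whose interval included 1 once repeated pairs or neighbouring fragments were removed.

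Within 1 Mb, the share of counts was 65.1% in naive cells (62.1 to 67.9) and 69.7% in primed cells (66.3 to 72.8). The ratio was 1.07 (0.955 to 1.20), which includes 1. As an odds ratio, whose interval holds the totals fixed, the same counts gave 1.23 (1.01 to 1.51). Whether these shares differ beyond counting error thus depends on how the interval is made, as that of the ratio is wide for large shares. It also depends on the window, since within 200 kb the ratio was 1.16 (1.03 to 1.32). At all the other 10 with at least 400 counts in each state the share was lower in primed cells, and the primed minus naive difference ran from -14.4 points (Klf4-distal-SE) to -0.668 points (Malt1). Below that depth the share was higher in primed cells at 3 more viewpoints, Lefty1, Trim28-SE and Dnmt3a-550kb, which had 3 to 52 counts in a state, each with an interval of the ratio that includes 1. Counts beyond 10 Mb made up 21.2% in naive and 17.1% in primed cells, and those from 1 to 10 Mb 13.8% and 13.3%. The higher primed share was that of the nearest pairs. Pairs from 200 to 1000 kb took 15.0% of naive and 11.4% of primed counts.

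No fragment over the oligonucleotide was listed, and the nearest listed fragments left a gap of 1418 bp, from after 180887997 to before 180889416. The bin of 10 kb around the viewpoint (180880001 to 180890000) was touched by 159 of the 685 naive counts, or 23.2% (20.1 to 26.6). It was touched by 146 of the 551 primed counts, or 26.5% (22.9 to 30.4). These counts were left out from here on, because fragments this close to the viewpoint are joined to it at a high rate. The viewpoint lies near the downstream end of this bin, so more was left out upstream than downstream. With no region left out, 299 of 685 naive and 263 of 551 primed counts had at least 1 fragment upstream, a ratio of 1.09 (0.923 to 1.29). The counts used were then 526 in naive cells on 428 distinct pairs and 405 in primed cells on 300 distinct pairs.

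Pairs with both fragments downstream of the viewpoint, towards higher coordinates, numbered 339 of 526 in naive cells (64.4%) and 266 of 405 in primed cells (65.7%). Pairs with both fragments upstream numbered 104 (19.8%) and 79 (19.5%). Pairs with a fragment on each side, which straddle the viewpoint, numbered 83 (15.8%) and 60 (14.8%), a ratio of 0.939 (0.662 to 1.32). Pairs with at least 1 fragment upstream numbered 187 (35.6%) and 139 (34.3%), a ratio of 0.965 (0.769 to 1.21), but 0.756 (0.571 to 0.995) with 1 more bin left out on each side of the viewpoint, so whether the sides differ between the states depends on the region left out. Fragments over 50 kb apart were found in 148 naive (28.1%) and 103 primed counts (25.4%), a ratio of 0.904 (0.696 to 1.17). Neighbouring fragments, with only their shared DpnII site between them, made up 183 naive (34.8%) and 167 primed counts (41.2%), a ratio of 1.19 (0.955 to 1.47).

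**Figure D1:**
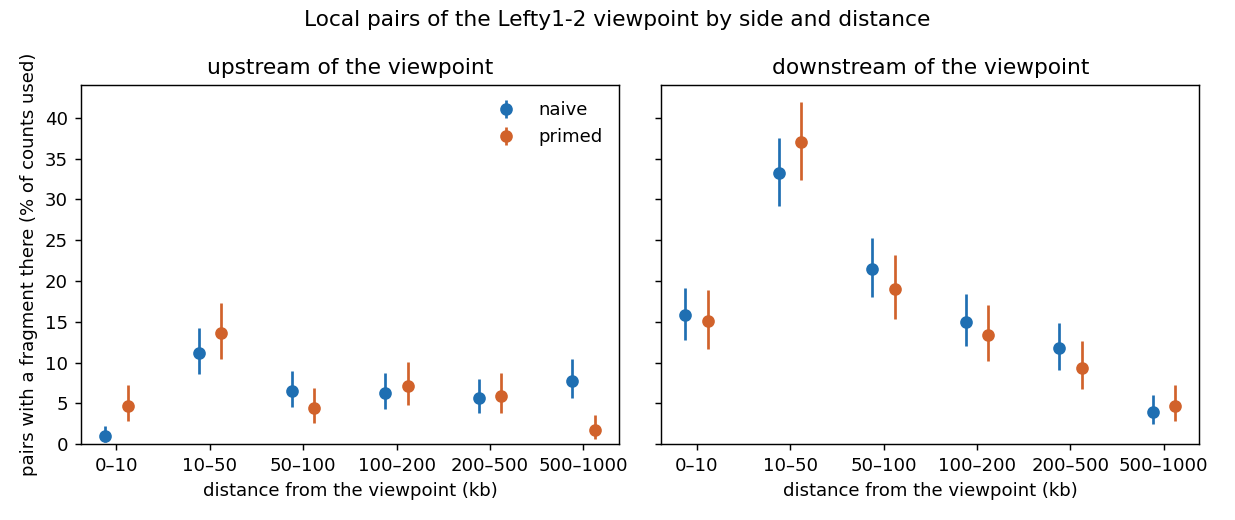
Share of the counts used (%, y axis) with at least 1 fragment in each band of distance from the viewpoint (kb, x axis), upstream on the left and downstream on the right, for naive (blue) and primed cells (orange), with exact 95% intervals. The intervals of the states are apart upstream at 500 to 1000 kb, where naive cells had 7.79% and primed cells 1.73%, and at 0 to 10 kb (0.951% and 4.69%), and they overlap in every downstream band. Most of the upstream band of 0 to 10 kb lies in the left-out bin.

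By distance, naive cells had more of the farthest pairs, and primed cells had a higher share at 10 to 50 kb, with an interval that excluded 1 with all counts but not under the alternatives run. A fragment over 200 kb away was present in 140 naive counts (26.6%) and 82 primed counts (20.2%), a ratio of 0.761 (0.572 to 1.01). Both fragments were over 200 kb away in 84 (16.0%) and 44 counts (10.9%), a ratio of 0.680 (0.461 to 0.991). When pairs were sorted by their farther fragment, 147 naive (27.9%) and 150 primed counts (37.0%) fell in the band of 10 to 50 kb, a ratio of 1.33 (1.05 to 1.68). This ratio was 1.24 (0.934 to 1.64), with each distinct pair counted once and 1.33 (0.974 to 1.81) without neighbouring fragments, and both intervals include 1. In the band of 500 to 1000 kb there were 62 (11.8%) and 26 (6.42%), a ratio of 0.545 (0.331 to 0.874).

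The outermost band differed on the upstream side. There, 500 to 1000 kb before the viewpoint, a region with Cdc42bpa, Coq8a and Psen2 and part of Itpkb was touched by 41 naive counts (7.79%) and 7 primed counts (1.73%), a ratio of 0.222 (0.0839 to 0.499). The 41 counts lay on 38 distinct pairs and 43 distinct fragments there, none seen more than 2 times, so no single fragment pair carried them. With each distinct pair counted once the ratio was 0.263 (0.0990 to 0.596), and without neighbouring fragments, from 32 and 4 counts, 0.180 (0.0463 to 0.508). In 22 of the naive counts both fragments lay in this band. Downstream at the same distance the counts were 21 and 19, a ratio of 1.18 (0.598 to 2.30). Downstream over upstream counts at 500 to 1000 kb were thus 0.512 in naive and 2.71 in primed cells, while from 10 to 500 kb downstream exceeded upstream in both states, by 1.58 to 4.28 times. This band was picked out after its values were seen, as 1 of 6 on each side.

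In the nearest upstream band the difference ran the other way. Downstream at the same distance 83 naive and 61 primed counts gave a ratio of 0.955 (0.674 to 1.34). The part of the first 10 kb upstream that lies beyond the left-out bin was touched by 5 naive (0.951%) and 19 primed counts (4.69%), a ratio of 4.94 (1.78 to 16.9). With each distinct pair counted once these were 5 and 9, a ratio of 2.57 (0.773 to 9.75), which includes 1. Without neighbouring fragments they were 4 and 10, a ratio of 3.60 (1.04 to 15.7).

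**Figure D2:**
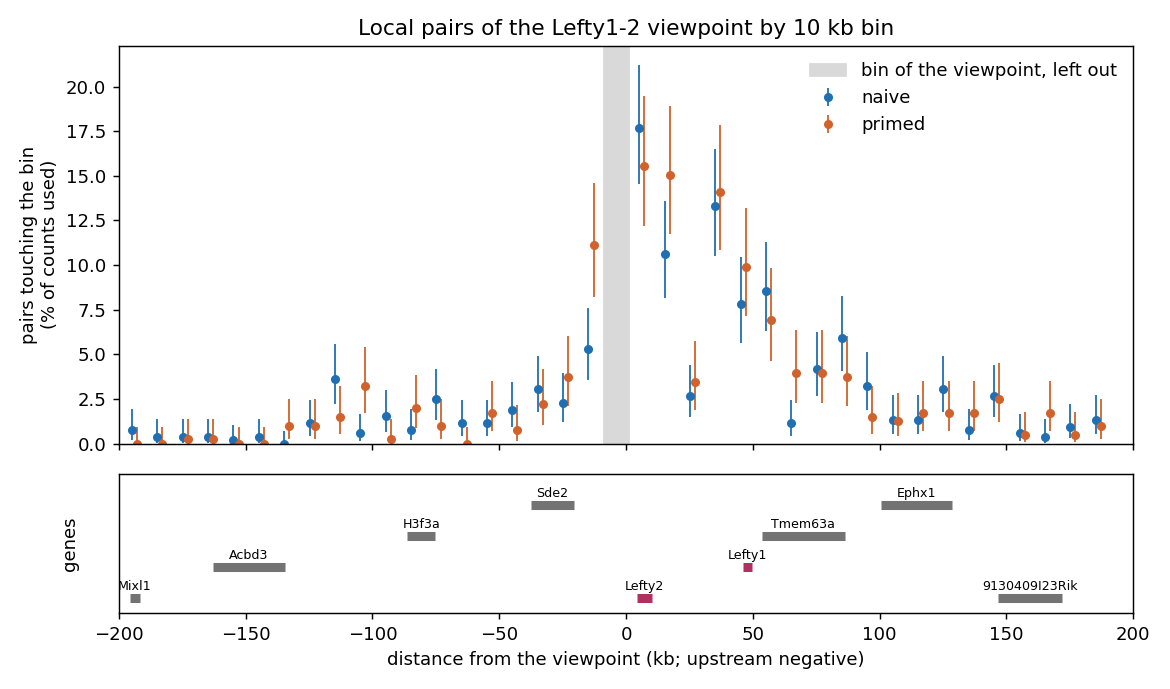
Share of the counts used (%, y axis) that touched each bin of 10 kb within about 200 kb of the viewpoint (distance in kb, x axis), for naive (blue) and primed cells (orange), with exact 95% intervals and named protein-coding genes drawn to scale below. In both states the bin at 26 kb downstream lies below the bin at 36 kb, and the bin just upstream of the viewpoint is higher in primed (11.1%) than in naive cells (5.32%).

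The profile along the locus was uneven in both states. Of 126 bins of 10 kb with a count, the bin that holds Lefty2 (180890001 to 180900000) was touched most, by 93 naive (17.7%, 14.5 to 21.2) and 63 primed counts (15.6%, 12.2 to 19.5). It is also the bin next to that of the viewpoint. Of these counts, 45 naive and 31 primed had a midpoint before the start of Lefty2, on the side of the viewpoint.

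Contact did not fall steadily with distance. The bin 180910001 to 180920000, between the Lefty genes, which holds no protein-coding gene, was touched by 14 naive (2.66%, 1.46 to 4.43) and 14 primed counts (3.46%, 1.90 to 5.73). The bin after that, 180920001 to 180930000, which holds the Lefty1 oligonucleotide, was touched by 70 naive (13.3%, 10.5 to 16.5) and 57 primed counts (14.1%, 10.8 to 17.8). It was thus higher than the nearer bin in both states, with intervals apart. Over both states 12 distinct fragments were seen in the nearer bin and 23 in the farther one, and the part of cutting density in this was not tested. The Lefty1 bin (180930001 to 180940000) was touched by 41 naive (7.79%) and 40 primed counts (9.88%). The bin after it, at the start of Tmem63a, was touched by 45 naive (8.56%) and 28 primed counts (6.91%).

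Of the 16 bins with at least 20 counts over both states, 2 were at least 2-fold higher in primed cells (12.5%) and 2 at least 2-fold lower (12.5%), and the median ratio was 0.936. The highest was 180950001 to 180960000, inside Tmem63a, with 6 naive and 16 primed counts, a ratio of 3.46 (1.29 to 10.8). Here 12 of the primed counts joined fragments within the bin, lay on 2 distinct pairs, and had no naive counterpart. With each distinct pair counted once the bin had 4 and 6 counts, a ratio of 2.14 (0.507 to 10.3), and without neighbouring fragments it had 6 and 4, a ratio of 0.961 (0.199 to 4.05), which turned the direction. The other was 180870001 to 180880000, just upstream of the bin of the viewpoint, with 28 naive (5.32%) and 45 primed counts (11.1%), a ratio of 2.09 (1.27 to 3.47). With each distinct pair counted once it was 1.67 (0.925 to 3.06), and without neighbouring fragments 1.55 (0.877 to 2.76). The interval excluded 1 for these 2 bins alone, and for neither once repeats or neighbouring fragments were removed.

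The lower bins were 180770001 to 180780000, which holds no protein-coding gene, and 180980001 to 180990000, at the edge of Ephx1, an epoxide hydrolase. The first had 19 naive and 6 primed counts, a ratio of 0.410 (0.134 to 1.07), the lowest of the 16. With each distinct pair counted once it had 18 and 3, a ratio of 0.238 (0.0449 to 0.814). Without neighbouring fragments it had 15 and 2, a ratio of 0.192 (0.0213 to 0.826). Its interval thus excluded 1 under both alternatives but not with all counts. The second had 17 and 6, a ratio of 0.458 (0.148 to 1.22).

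Lefty2 and Lefty1 themselves were touched at like rates in naive and primed cells. Lefty2 (180893108 to 180899107, plus strand) was touched by 41 naive (7.79%) and 33 primed counts (8.15%), a ratio of 1.05 (0.640 to 1.69). Lefty1 (180935022 to 180938401, plus strand) was touched by 28 naive (5.32%) and 21 primed counts (5.19%), a ratio of 0.974 (0.526 to 1.78). These intervals leave room for a change of over 1.5-fold in either direction. The genes are close paralogues, and how the authors treated reads that match both is not given in the sources used here, so part of the counts inside them may be split between the genes.

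Per kb of gene span, Lefty1 took 1.57% of naive and 1.53% of primed counts, and Lefty2 took 1.30% and 1.36%. Less was taken, among the genes named here, with 0.434% and 0.421% per kb for Tmem63a and 0.170% and 0.167% for Ephx1. These 2 genes lie farther away and span 32.8 and 28.0 kb, and distance, span and fragment density were not accounted for. A rate of this size was not confined to the Lefty genes. The 10 kb bin of the Lefty1 oligonucleotide, without a protein-coding gene, took 13.3% of naive and 14.1% of primed counts. The Lefty genes did not differ from each other beyond counting error, with naive intervals of 1.06 to 2.25% for Lefty1 and 0.942 to 1.74% for Lefty2, and in primed cells their order turned with each distinct pair counted once (1.38% and 1.44%).

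Within Lefty2 a fragment of 245 bp just inside the gene, 180893638 to 180893882, was touched by 14 naive counts, each with a different partner, against 5 primed counts with 5 partners, a ratio of 0.464 (0.131 to 1.36). The fragment over the start of Lefty2, 180891979 to 180893633, had 8 naive and 11 primed counts. Of the fragments over the gene, 180896747 to 180896893 was the one whose interval excluded 1, with 4 naive and 11 primed counts, a ratio of 3.57 (1.06 to 15.4), and 6 of its primed counts joined neighbouring fragments. In Lefty1 the fragment over the start, 180934343 to 180935186, had 1 naive and 5 primed counts. No fragment over Lefty1 had an interval that excluded 1.

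**Figure D3:**
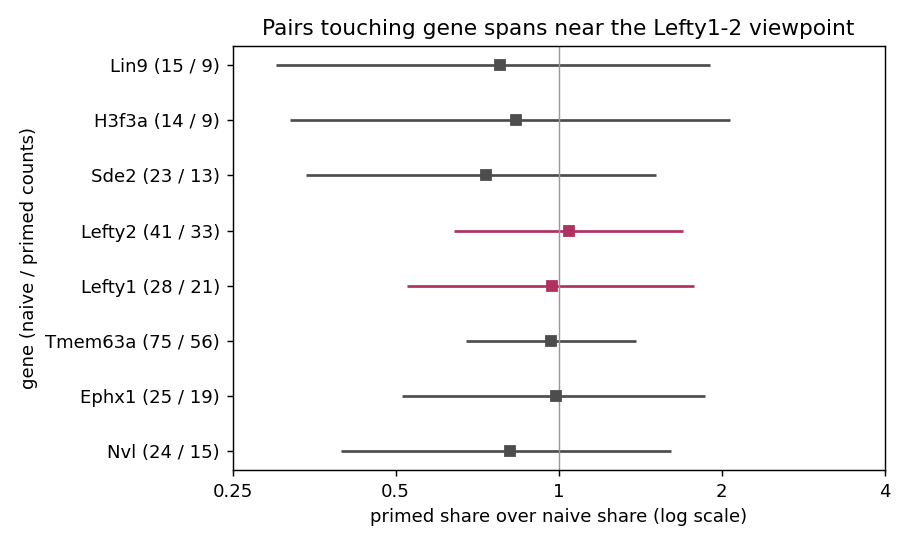
Primed over naive ratio of the share of counts touching each gene span (log scale, x axis) with its 95% interval, for the named genes in order along the chromosome (y axis, naive / primed counts in brackets), with the Lefty genes in red. Each of the 8 intervals includes 1, and the ratios run from 0.734 (Sde2) to 1.05 (Lefty2).

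The third Nodal and Activin target of the window, Mixl1, a homeobox gene of the mesendoderm at 180693043 to 180697034, was hardly touched. It had 2 naive counts and 0 of 405 primed counts. Taking 3 counts as the most that a count of 0 allows, the primed share is up to 0.741%, and its exact interval ends at 0.907%. Among the 24 protein-coding genes considered within 1 Mb, 8 were touched by at least 20 counts over both states, 15 by fewer and 1 by none. For none of the 8 was the ratio past 2-fold, and no interval excluded 1.

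Of the genes on the upstream side, Sde2, a factor of splicing and genome stability, had 23 naive and 13 primed counts, a ratio of 0.734 (0.342 to 1.51). H3f3a, which encodes histone H3.3, had 14 and 9, and Lin9, a member of the MuvB complex of cell cycle control, had 15 and 9. Downstream, Tmem63a, a mechanosensitive ion channel, was touched more than any other gene, by 75 naive (14.3%) and 56 primed counts (13.8%), over a span of 32.8 kb. Ephx1 had 25 and 19, and Nvl, an ATPase of ribosome biogenesis, 24 and 15. Of the 21 genes listed for the region beside the Nodal targets, 15 lay in the window and 6 had at least 20 counts, all with an interval that included 1.

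**Figure D4:**
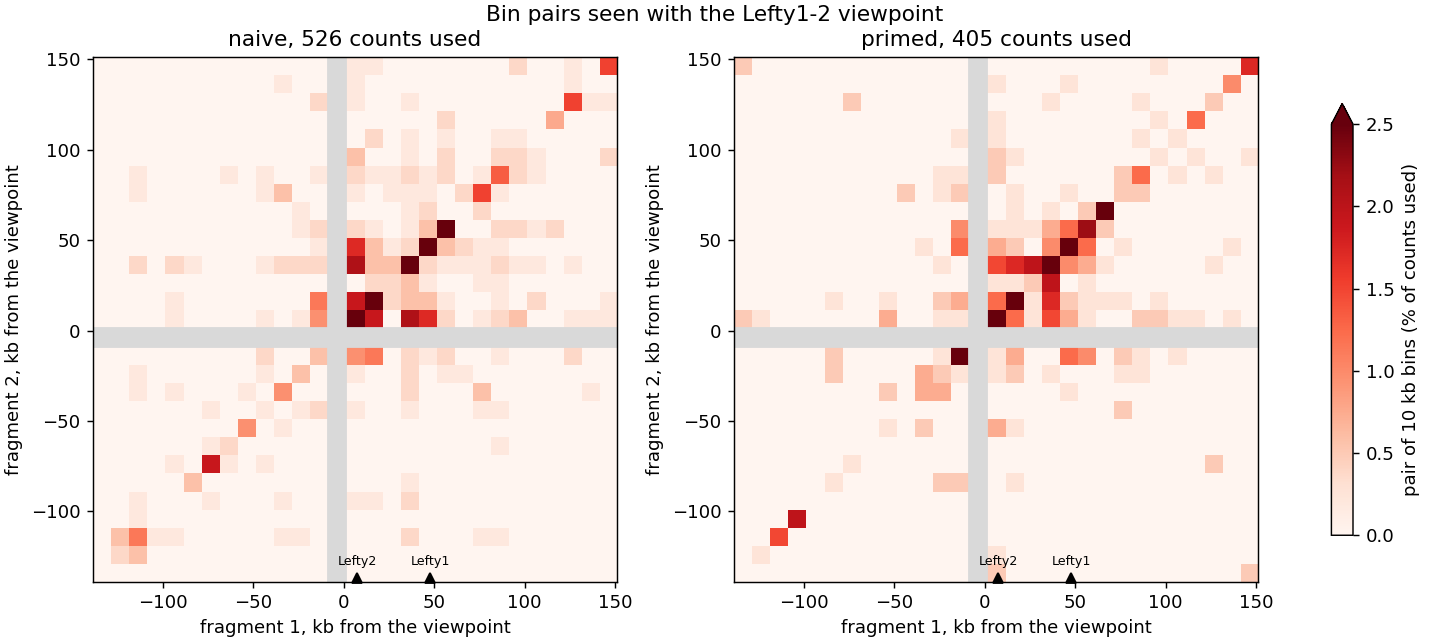
Share of the counts used (%, colour, capped at the top of the scale) for each pair of bins of 10 kb from about 140 kb upstream to 150 kb downstream of the viewpoint (kb, both axes), in naive (left) and primed cells (right), with the left-out bin of the viewpoint in grey and the Lefty genes as triangles. In naive cells the Lefty2 bin pairs with the bins of the Lefty1 oligonucleotide (11 counts) and of Lefty1 (9 counts), and in primed cells these pairs have 6 and 3 counts.

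The viewpoint, Lefty2 and the Lefty1 region were seen together in single reads in both states. The Lefty2 bin paired with the bin of the Lefty1 oligonucleotide in 11 naive counts on 11 distinct pairs and in 6 primed counts on 5. It was the highest of the 17 bin pairs as far apart downstream in both states, the 16 others having a mean of 0.5 naive and 0.313 primed counts. The Lefty2 bin paired with the Lefty1 bin in 9 naive and 3 primed counts, again the highest of 16 such pairs in both states, against 2 and 1 for the next. The ratios were 0.708 (0.215 to 2.09) and 0.433 (0.0754 to 1.73), so no difference between the states was detectable at this depth.

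These bins were also among the most touched, so the pairs were set against the product of the bins' own counts, scaled to the other bin pairs as far apart, a measure chosen after seeing the data. For the Lefty2 and Lefty1 oligonucleotide bins, 8.29 naive counts would be found, and the observed 11 were 1.33-fold (0.486 to 3.80, from the split of the counts). For the Lefty2 and Lefty1 bins the naive value was 3.06-fold (0.919 to 11.6). In primed cells the values were 1.57-fold (0.398 to 6.48) and 2.24-fold (0.257 to 26.8). All 4 were above 1 with intervals that include 1, and the scaling rests on only 2 to 8 counts of the other pairs, so an excess of the size seen was not resolved at this depth. Within the gene spans themselves, Lefty2 and Lefty1 were joined in 2 naive and 2 primed counts.

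Of 326 bin pairs with a count, 18 had at least 10 over both states, 13 of them within 1 bin. Of these 18, 4 were at least 2-fold higher in primed cells (22.2%) and 5 at least 2-fold lower (27.8%). The interval excluded 1 for 3, each within a bin. The pair of 180950001 to 180960000 with itself had 0 naive and 12 primed counts, the latter on 2 distinct pairs. Against a floor of 3 naive counts the primed share was 5.20-fold higher. The interval from the split of the counts has a lower end of 3.61, so 5.20 is not a lower bound. That of 180870001 to 180880000 had 3 and 22 counts, on 3 and 8 distinct pairs, a ratio of 9.52 (2.86 to 49.7). That of 180810001 to 180820000, at H3f3a, had 10 and 1, on 4 and 1 distinct pairs, a ratio of 0.130 (0.00299 to 0.913), the lowest.

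The partners of the Lefty1 oligonucleotide bin differed between the states, though the bin itself was touched alike. Of its 70 naive counts, 16 had the other fragment upstream of the viewpoint (22.9%, 13.7 to 34.4), from 12.9 to 604 kb away. Of its 57 primed counts, 1 did (1.75%, 0.0444 to 9.39), a ratio of 0.0768 (0.00183 to 0.494). With each distinct pair counted once the counts were 14 of 61 and 1 of 42, a ratio of 0.104 (0.00245 to 0.682). A partner over 50 kb from the bin was present in 22 naive and 4 primed counts, a ratio of 0.223 (0.0559 to 0.657).

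The Lefty2 and Lefty1 bins did not share this. Partners upstream of the viewpoint were found in 13 of 93 naive and 12 of 63 primed counts of the Lefty2 bin, a ratio of 1.36 (0.568 to 3.24). For the Lefty1 bin they were found in 3 of 41 and 7 of 40, a ratio of 2.39 (0.546 to 14.3). The difference at the Lefty1 oligonucleotide bin was picked out after its values were seen, among 5 kinds of partner in 3 bins, and whether the bins differ from each other was not tested.

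Among the fragments seen most often in naive cells were 180889987 to 180890041 with 20 counts (7 in primed cells) and 180890046 to 180891157 with 19 (10 in primed cells), both between the viewpoint and Lefty2. They were followed by the fragment in Lefty2 described above with 14 counts and by 180947814 to 180947938 in Tmem63a with 14 (1 in primed cells).

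In primed cells 180879545 to 180879647 and 180921053 to 180921755 had 14 counts each, with 5 and 7 distinct partners. Both had 1 count in naive cells. The first is the fragment named above in the nearest upstream band.

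Of the leading single pairs in naive cells, the neighbouring fragments between the viewpoint and Lefty2 had 8 counts, and 4 in primed cells. Further leading pairs in naive cells were a neighbouring pair at H3f3a (7 counts, 0 in primed) and a pair in Tmem63a at 180947671 to 180947938 (7 counts, 0 in primed). In primed cells a neighbouring pair in Tmem63a at 180952888 to 180953376 had 8 counts, one at 180878130 to 180879647 had 7, a pair of 180917798 to 180918109 with 180921053 to 180921755 had 6, and a pair of a Tmem63a fragment at 180961487 with one at 181515203 had 5. Of these, 1 naive count was found for the pair at 180878130 and none for the other 3.

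Few fragment pairs recurred between the states. Of 428 naive and 300 primed pairs, 37 were found in both, or 8.64% of the naive and 12.3% of the primed pairs. Among neighbouring fragments 29 recurred, 24.0% of 121 naive and 29.9% of 97 primed pairs. Among all other pairs 8 did, 2.61% of 307 and 3.94% of 203. Single fragments recurred more often, with 156 in both states, or 31.9% of 489 naive and 46.4% of 336 primed fragments.

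Most pairs were seen once, 86.9% in naive and 82.0% in primed cells, and pairs seen more than once held 29.3% of naive and 39.3% of primed counts. Sets of 3 fragments with all of their pairs listed, as a read with 3 reporters would leave, numbered 54 in naive and 39 in primed cells. They took in 30.8% and 32.3% of the distinct pairs.

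From the second viewpoint of the locus, at the Lefty1 oligonucleotide and in the other pool, there were only 52 naive and 12 primed counts. Both fragments were within 1 Mb in 40 and 10 of them. The bin of the Lefty1-2 viewpoint was touched by 3 of the 52 naive counts (5.77%, 1.21 to 15.9) and 0 of the 12 primed counts. There the same limit of 3 counts allows a share of up to 25%, and the exact interval ends at 26.5%. The Lefty2 bin was touched by 3 and 0 and the Lefty1 bin by 4 and 2, so this viewpoint was too shallow for a comparison.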

How the data were processed

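Tri-C libraries of J1 cells were cut with DpnII, captured and sequenced by the authors, who processed the reads with CapCruncher against mm10, kept reads with 2 or more cis reporters and deposited counts for each pair of reporter fragments, per viewpoint and state, as whole numbers without normalization. The aligner, the versions and the handling of duplicates were not given in the sources used here. Fragment starts in the deposited tables count from 0 and are given from 1 here. All 530 of 530 fragment starts inside the RefSeq promoter table of GRCm38.p6 followed a GATC, so the coordinates are those of this assembly. Fragments were placed by midpoint in bins of 10 kb. A pair touched a gene where a midpoint lay in its span, and each count entered once. Shares and intervals came from scipy 1.17.1 and numpy 2.4.6 under Python 3.11.15, and plots from matplotlib 3.10.9. The intervals were tested on simulated independent counts at the shares of single bins. That setting does not cover repeated pairs, reads with several reporters or shares as large as those within 1 Mb. Genes come from RefSeq GRCm38.p6, and strands from GENCODE.

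The rule for named items took Lefty1, Lefty2 and Mixl1, every other protein-coding gene with at least 20 counts, the bins and bin pairs with the highest and lowest ratio among those with at least 20 and 10 counts, the 5 leading fragments and pairs in each state, and the pair of the Lefty regions. One gene near the viewpoint and the items at it are not reported here. Members and lists were chosen with earlier results of these data known.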

Additional observations from a re-analysis of the deposited data

How the results depend on the processing

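No paired analysis was possible because each deposited table pools the replicates of a state, and none of them could be left out in turn. Each distinct pair counted once, the region left out around the viewpoint, the window, the denominator and the definition of a gene's span were varied, and leaving out neighbouring fragments, the odds ratio and the alternatives for single bands and bins were added after seeing the data. Ratios of the primed to the naive share ran from 1.04 to 1.16 within 1 Mb, where the interval excluded 1 in the window of 200 kb (1.16, 1.03 to 1.32) and for the odds ratio of 1.23, from 0.753 to 1.04 for straddling pairs, from 0.731 to 1.00 for fragments over 50 kb apart, from 0.701 to 0.840 for a fragment over 200 kb away, from 0.829 to 1.41 for Lefty1 and from 0.821 to 1.27 for Lefty2. For pairs with a fragment upstream, at 0.965 (0.769 to 1.21), they ran from 0.756 to 1.09, and with 1 more bin left out on each side the ratio was 0.756 (0.571 to 0.995). The interval for a fragment over 200 kb away excluded 1 under 2 of 6 alternatives, with no region left out (0.708) and with 5 kb left out on each side (0.701). The 4 of 16 bins past 2-fold became 1 with each distinct pair counted once, 2 with 1 more bin left out, 2 without neighbouring fragments, 0 with bins of 20 kb, 7 at 1.5-fold, and 12 of 31 with a minimum of 10 counts. With 5 kb bins there were 4. The cause was not tested. Lefty2 gave no value with 1 more bin left out, since it lies in that bin, pairs over 200 kb away gave none in a window of 200 kb, and the share within 1 Mb already leaves no region out. At 526 and 405 counts, a share of 5.32% has an interval of 3.57 to 7.60%, so ratios of single genes or bins are bounded loosely.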
